A study of Mus musculus with 11 samples.

Results

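When E14 mouse embryonic stem cells were taken through differentiation with RA and SAG, 72 genes were lower on day 1 than on day 0 and higher again on days 2 and 3. The genes were chosen by their measured values in a table of 38197 genes. In the deposited log2 CPM (read counts scaled to library size), the higher of the 2 day 1 libraries lay at least 0.5 (a 1.41-fold difference) below the lowest library of days 0, 2 and 3, and the day 0 mean was at least 2, which is 4 CPM. Id1 and Id2 met this rule and were left out by name, as were Id3, Id4 and Ldha. Of 10962 genes at or above the day 0 level, 0.675% met the rule before those names were dropped.

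E14 is a wild-type embryonic stem cell line of the 129 strain, grown here as a monolayer. RA, retinoic acid, activates nuclear receptors that give caudal identity to neural cells, and SAG activates Smoothened, the signal transducer of the hedgehog pathway, which gives ventral identity. Both agents were applied from day 0 to day 3 of differentiation conditions, and the series concerns the route to ventral hindbrain neurons. There were 2 libraries of whole cultures on each of days 0, 1, 2 and 3, where day 0 was undifferentiated cells, and 3 libraries of cells sorted for the surface protein Prominin-1 and labelled day 3.5 in one field and 3 days in another. The labels do not tell whether the replicates are independent cultures, so a p-value here speaks only of the spread between libraries, which may be technical.

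Leaving pluripotency takes cells through a change of signaling. Stem cells rely on cytokine and BMP signals, whose pathways switch on their own inhibitors, such as Socs3 and Smad7. Neural progenitors use other signals, among them Notch ligands and FGFs, and build a different cytoskeleton with the intermediate filament proteins vimentin and nestin. The 72 genes are described below in 10 groups by known role, made after their values were seen. They are secreted signals (10 genes), receptors and other surface signaling proteins (5), intracellular feedback inhibitors (4), transcription factors (2) and growth and cell cycle genes (3). The others are cytoskeletal genes (8), matrix and adhesion genes (9), neural genes (7), enzymes, transporters and chaperones (10) and a mixed rest (14).

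Library totals were 26136331 to 30384599 counts on days 0 to 3 and 13173674 to 17113430 counts at day 3.5. The sorted libraries were therefore shallower, and they also belong to another series of library numbers. Marker lists checked the labels: the summed level of 10 pluripotency markers went from 1851 to 2294 CPM on day 0 to 31.6 to 44.5 CPM on day 3, and that of 10 neural progenitor markers went from 222 to 295 CPM to 1290 to 1341 CPM. The 10 neuron markers summed to 351 to 384 CPM on day 0 and 1026 to 1231 CPM on day 3, with 119 CPM in the lower of the day 1 libraries and 141 CPM in the higher of day 2. For 10 fibroblast or mesenchyme markers, the sums were 346 to 415 CPM on day 0, 163 to 188 CPM on day 1 and 1205 to 1786 CPM on day 3. Vim, a member, made up most of each sum, at 284 and 325 CPM, 124 and 134 CPM, and 1453 and 1070 CPM. The day 1 fall of this sum therefore follows in large part from the choice of genes and checks no label. All of these sums come from whole cultures, so fewer cells of a type and less RNA per cell cannot be told apart.

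**Figure D1:**
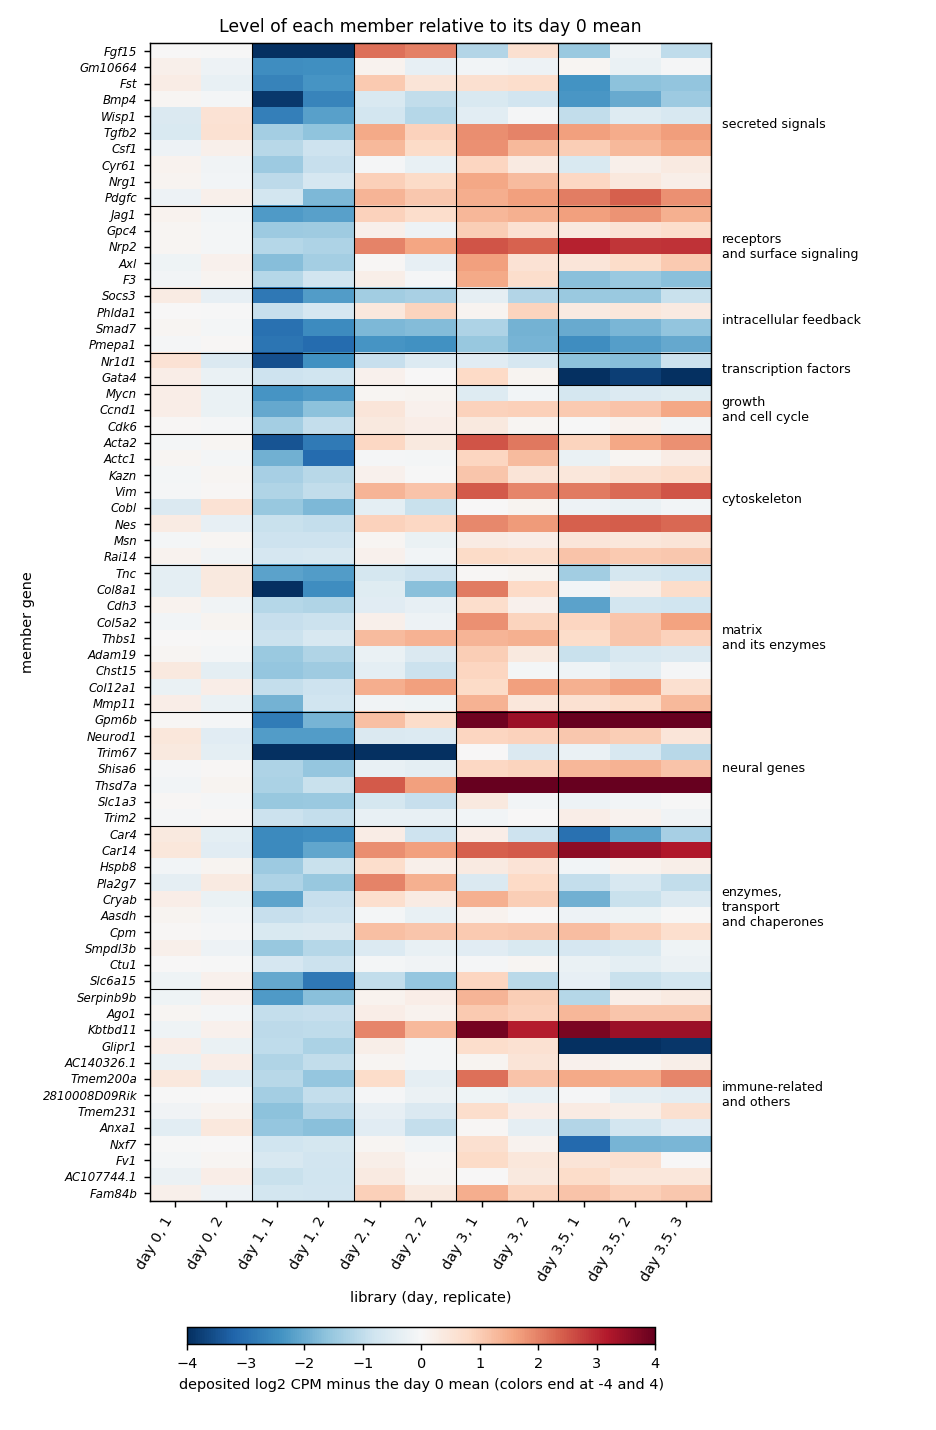
Deposited log2 CPM of 71 of the 72 genes (rows, by role) in each of the 11 libraries (columns), minus the gene's day 0 mean. Blue is below and red above the day 0 mean, with colors ending at 4 log2 units. The day 1 columns are blue throughout because the rule chose the genes so, while days 2, 3 and 3.5 differ between genes.

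The depth of the dip, taken as the lowest log2 CPM of days 0, 2 and 3 minus the higher day 1 value, ran from 0.50 to 3.17 with a median of 0.69 over the 71 genes other than Trim67, whose day 1 libraries held 2 and 4 counts. Rai14, at 0.501, and Slc6a15, at 0.506, were just inside the margin. Dpf1, at 0.499, was just outside it, as was Id3, also at 0.499. The members with the lowest day 0 means were Thsd7a at 2.05 and Col8a1 at 2.05. These values were used to choose the genes and carry no test.

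Membership depended on the scale and the margin. With TMM factors, which adjust for differences in RNA composition between libraries, 93 genes met the rule, 69 of the 72 among them. On log2(FPKM + 0.1), a value per transcript length, 45 genes met it, of which 32 were among the 72. All 72 genes were lower on day 1 in FPKM as well, 53 by the full margin, and 30 fell under the day 0 level of 2 on that scale. A margin of 1 left 23 genes. GC content was recorded for 66 of the 72 genes, with a median of 50.7% against 49.1% over 10345 genes at the day 0 level. The share of genes meeting the rule was 0.377% in the lowest of 3 equal GC classes, 0.899% in the middle class and 0.638% in the highest, and after a GC adjustment chosen after seeing the data 52 of the 66 met it. The part of GC content in the dip was not tested.

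Among the secreted signals, Fgf15 had the deepest dip of the 71 genes. Fgf15 is a fibroblast growth factor of the early neural tube and, in the intestine, a hormone that restrains bile acid synthesis. It stood at 10.9 and 11.5 CPM on day 0, 0.216 and 0.469 CPM on day 1, 47.9 and 41.3 CPM on day 2, and 4.37 and 16.1 CPM on day 3. Its mean was 32.7-fold lower on day 1 than on day 0 and 130-fold higher on day 2 than on day 1. The day 2 level was above day 0 in both libraries (log2 fold change 2.00 ± 0.50 SE, edgeR quasi-likelihood F test with Benjamini-Hochberg adjustment, adjusted p = 0.0122), and without day 2 replicate 1 the adjusted p was 0.0565. On day 3 the libraries lay on either side of the day 0 values. The sorted libraries held 3.76, 9.27 and 5 CPM.

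Fgf15 lies on chromosome 7 at 144896531 to 144900953 (GRCm38, GENCODE M21, plus strand). A second member, Ccnd1, lies 28978 bases away on the same chromosome at 144929931 to 144939925, on the minus strand. It encodes cyclin D1, which drives entry into S phase and is the member that the Wnt target list holds. Ccnd1 read 199 and 151 CPM on day 0, 39.3 and 48.9 CPM on day 1, 222 and 177 CPM on day 2, and 286 and 308 CPM on day 3. The sorted libraries were at 339, 354 and 458 CPM. Day 3 was 1.70-fold above day 0, and neither step from day 2 on was called (adjusted p = 0.130 and 0.362 in edgeR). Only 1 other pair of members on the same chromosome was closer than 500 kb, Glipr1 and Phlda1, with a gap of 476803 bases on chromosome 10.

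Apela, listed in the files as Gm10664, encodes a small secreted peptide that signals through the apelin receptor. Its levels were 60.7 and 50.5 CPM on day 0, 9.20 and 8.85 CPM on day 1, 56.3 and 40.1 CPM on day 2, and 45.1 and 43.9 CPM on day 3. The sorted libraries held 55.6, 42.7 and 48.1 CPM. The day 0 mean was 6.16-fold and the day 2 mean 5.34-fold above the day 1 mean, and none of the 3 comparisons that leave out day 1 was called.

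Bmp4, a bone morphogenetic protein, and Fst, the secreted activin and BMP antagonist follistatin, both dipped and then took different levels. Bmp4 had 25.4 and 24.5 CPM on day 0, 1.59 and 3.5 CPM on day 1, 15.1 and 11.6 CPM on day 2, and 14.2 and 13.4 CPM on day 3. Both day 3 libraries were below both day 0 libraries, at 0.553 times the day 0 mean. Fst had 31.2 and 22.5 CPM on day 0, 3.90 and 4.47 CPM on day 1, 51.1 and 34.8 CPM on day 2, and 36.1 and 39.4 CPM on day 3. Its day 2 and day 3 libraries were all above its day 0 libraries, though day 2 against day 0 did not pass the test (adjusted p = 0.0519 in edgeR). In the sorted libraries Fst was at 4.72, 7.84 and 8.01 CPM, and Bmp4 at 4.72, 5.71 and 8.16 CPM.

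The other secreted signals had shallower dips of 0.52 to 1.04. They were Wisp1 and Cyr61, matricellular proteins of the CCN family, Tgfb2 (a TGF-beta ligand), Csf1 (the macrophage growth factor), Nrg1 (a ligand of ErbB receptors) and Pdgfc (a PDGF receptor ligand). On day 2 Csf1, Nrg1 and Pdgfc were called above day 0, by 0.93, 0.75 and 1.09 on the log2 scale. Pdgfc continued to 30.4, 37.7 and 24.5 CPM in the sorted libraries, from 6.36 and 9.12 CPM on day 0. Cyr61, the only member among 20 immediate early genes, stood at 81.9 and 73.5 CPM on day 0, 26.8 and 36.1 CPM on day 1 and 123 and 91.2 CPM on day 3.

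**Figure D2:**
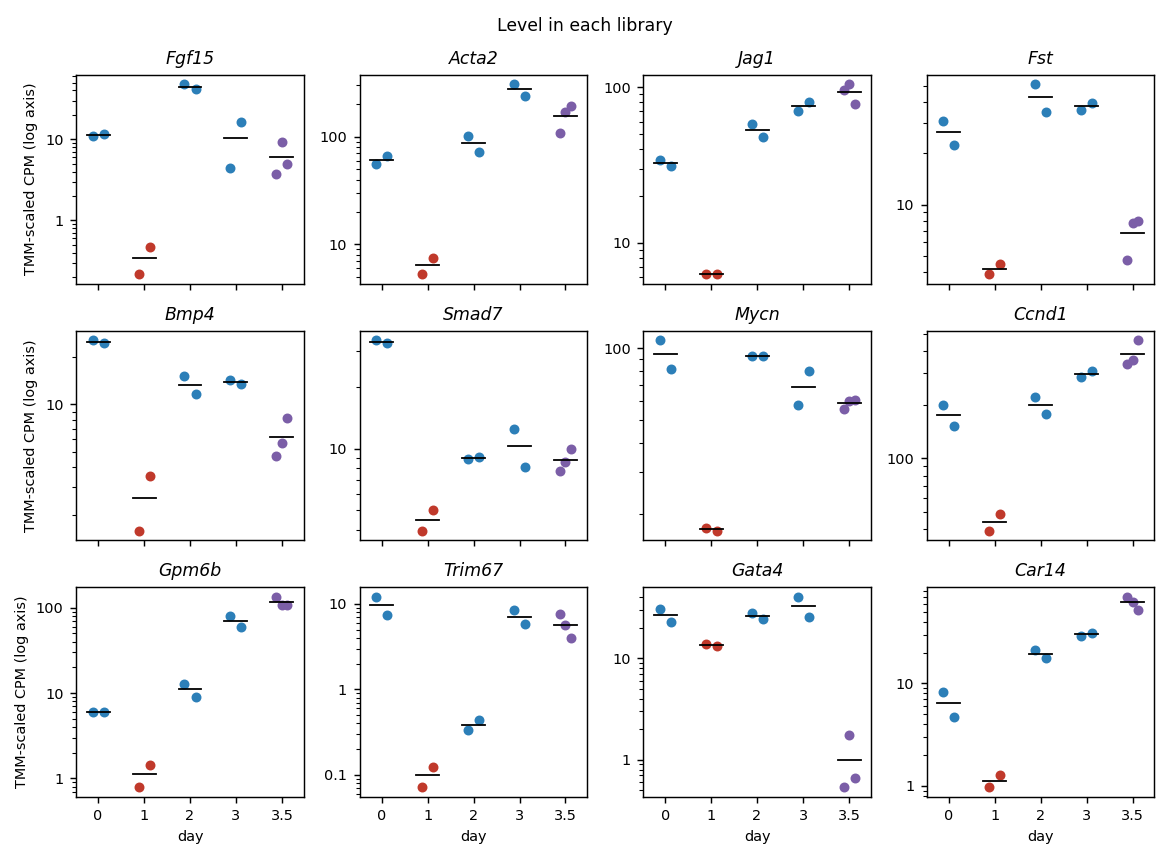
TMM-scaled CPM on a log axis (y) by day (x) for 12 members. Each point is a library, the line is the mean of the day, red marks day 1 and purple the sorted day 3.5 libraries. Smad7 returned only part of the way to its day 0 level, Gpm6b and Car14 went well past theirs, Trim67 was still low on day 2, and Gata4 and Fst were low again in the sorted libraries.

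Of the surface proteins, Jag1 had the deepest dip. Jag1 is a transmembrane ligand that activates Notch receptors on neighboring cells (chromosome 2, 137081456 to 137116644, minus strand, GRCm38). It read 34.0 and 31.0 CPM on day 0, 6.28 CPM in both day 1 libraries, 57.8 and 48.0 CPM on day 2, and 70.9 and 80.3 CPM on day 3. The sorted libraries were at 96.4, 105 and 77.9 CPM. Jag1 was called higher on day 2 than on day 0 (log2 fold change 0.71 ± 0.17, adjusted p = 0.0113 in edgeR). Of 7 Notch ligands and effectors at the day 0 level, Hes1 and Notch3 were also lower on day 1 than on each other unsorted day, by less than the margin. Over all 10962 genes at the day 0 level, 3.8% had a dip above 0, and nothing is read from a list of 7.

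Nrp2, a co-receptor for semaphorins and vascular growth factors, ended far above its start. It held 18.1 and 17.8 CPM on day 0, 7.54 and 6.72 CPM on day 1, 66.5 and 48.6 CPM on day 2, 90.0 and 83.5 CPM on day 3, and 145, 122 and 119 CPM after sorting. The rise from day 0 to day 2 passed the test (log2 fold change 1.68 ± 0.20, adjusted p = 0.000244 in edgeR). Gpc4, a cell-surface heparan sulfate proteoglycan, and the receptor tyrosine kinase Axl were not called in any of the 3 comparisons. Axl read 10.2 and 14.3 CPM on day 0, 3.46 and 4.06 CPM on day 1, and 33.0 and 16.5 CPM on day 3. F3, the tissue factor that starts coagulation, is taken up with the sorted libraries.

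Of the 4 feedback inhibitors, grouped after their values were seen, 3 were called lower on day 2 than on day 0, where 20.1% of all genes tested were. The libraries of both days also enter the rule, so nothing is read from this share. Smad7 blocks TGF-beta and BMP receptors, Pmepa1 dampens TGF-beta signaling by holding receptor-activated SMADs, and Socs3 blocks cytokine receptors that act through JAK and STAT3. Smad7 read 33.8 and 32.7 CPM on day 0, 3.97 and 5.03 CPM on day 1, 8.88 and 9.05 CPM on day 2, and 12.4 and 8.16 CPM on day 3. Pmepa1 read 22.2 and 25.3 CPM on day 0, 2.89 and 2.44 CPM on day 1, 4.24 and 4.07 CPM on day 2, and 7.29 and 5.95 CPM on day 3. Socs3 read 52.4 and 36.2 CPM on day 0, 5.55 and 8.13 CPM on day 1, 15.5 and 16.3 CPM on day 2, and 29.6 and 17.7 CPM on day 3. For all 3 the day 2 and day 3 libraries lay between day 1 and day 0, so they recovered only in part.

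On day 2 the changes from day 0 were -2.51 ± 0.25 for Pmepa1 (adjusted p = 0.000107), -1.89 ± 0.26 for Smad7 (adjusted p = 0.000614) and -1.47 ± 0.31 for Socs3 (adjusted p = 0.0053), in log2 units by edgeR. The call of Socs3 was lost in limma on log2(FPKM + 1) with no filter (adjusted p = 0.0798). With Bmp4, Smad7 and Pmepa1 were the members from a list of 20 BMP and TGF-beta feedback genes, of which 12 were at the day 0 level. Id1 and Id2, which met the rule, and Id3, just outside the margin, are not in this list. In that list of 20, 8 genes were called higher and 5 lower on day 2 than on day 0 (21.3% and 20.1% of all genes tested), with a median of 0.49 against 0.02 for all genes. Phlda1, an ERK-responsive gene, was the fourth inhibitor and the sole member from 16 FGF feedback genes. It went from 8.63 and 9.33 CPM on day 0 to 4.40 and 4.94 CPM on day 1 and to 11.3 and 15.4 CPM on day 2, with no call in the 3 comparisons.

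The transcription factors were Nr1d1, which encodes the circadian repressor REV-ERB alpha, and Gata4, a factor of endoderm and heart. Nr1d1 was low throughout, at 6.69 and 3.21 CPM on day 0, 0.361 and 0.750 CPM on day 1, and 2.27 to 2.96 CPM over the libraries of days 2 and 3. Gata4 had a small dip, from 30.5 and 22.5 CPM on day 0 to 13.9 and 13.3 CPM on day 1. It was at 27.5 and 24.2 CPM on day 2 and 40.2 and 25.5 CPM on day 3.

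Mycn and Cdk6 act with Ccnd1 in growth and the cell cycle, as a MYC-family transcription factor and as a kinase partner of D cyclins. Mycn read 108 and 82.1 CPM on day 0, 17.5 and 17.0 CPM on day 1, 93.2 and 92.9 CPM on day 2, and 57.5 and 80.3 CPM on day 3. Cdk6 read 24.5 and 25.2 CPM on day 0, 9.09 and 11.3 CPM on day 1, and 30.4 and 27.1 CPM on day 2. Neither was called in the 3 comparisons. Of 17 S phase genes and 18 G2 and M phase genes at the day 0 level, 0 were lower on day 1 than in every library of days 0, 2 and 3. The share over all 10962 genes was 3.8%, so lists of this size are too short to be set apart from it.

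Among the cytoskeletal genes the actins had the deepest dips. Acta2, smooth muscle alpha-actin, held 55.8 and 66.7 CPM on day 0, 5.27 and 7.50 CPM on day 1, 102 and 72.6 CPM on day 2, and 308 and 241 CPM on day 3. Its day 3 mean was 4.49-fold its day 0 mean, and the sorted libraries were at 107, 169 and 194 CPM. Actc1, cardiac alpha-actin, held 9.92 and 9.55 CPM on day 0, 2.38 and 1.00 CPM on day 1, 8.73 and 8.40 CPM on day 2, and 15.7 and 21.6 CPM on day 3. Both genes were above both day 0 libraries in each day 3 library. Actin genes of muscle are textbook targets of serum response factor, and matricellular genes such as Cyr61 of the YAP and TEAD complex.

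Promoters are shown for Actc1 and for the secreted signals Pdgfc and Cyr61, because the 250 bases before their starts hold the motifs of these factors with few or no annotated exon bases. They come from the RefSeq promoter table (GRCm38.p6), 5′ to 3′ on the gene's strand, which is plus for Pdgfc and minus for Actc1 and Cyr61. Capitals mark the CArG box, the serum response factor motif, in Actc1 (47 bases before the start) and Pdgfc (17 bases), and the TEAD core motif GGAATG in Pdgfc (137 bases). In Cyr61 they mark the same core on the opposite strand, 103 bases before the start.
Actc1, chr2:114052876-114053125: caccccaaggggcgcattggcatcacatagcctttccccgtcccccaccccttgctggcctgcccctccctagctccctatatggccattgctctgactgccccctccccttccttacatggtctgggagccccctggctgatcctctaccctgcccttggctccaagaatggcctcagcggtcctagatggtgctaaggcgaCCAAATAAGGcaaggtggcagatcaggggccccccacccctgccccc
Pdgfc, chr3:81036166-81036415: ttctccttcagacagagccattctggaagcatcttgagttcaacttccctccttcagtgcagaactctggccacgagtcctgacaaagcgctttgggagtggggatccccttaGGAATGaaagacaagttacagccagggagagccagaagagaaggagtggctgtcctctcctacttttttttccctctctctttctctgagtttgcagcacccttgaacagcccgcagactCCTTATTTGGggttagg
Cyr61, chr3:145649986-145650235: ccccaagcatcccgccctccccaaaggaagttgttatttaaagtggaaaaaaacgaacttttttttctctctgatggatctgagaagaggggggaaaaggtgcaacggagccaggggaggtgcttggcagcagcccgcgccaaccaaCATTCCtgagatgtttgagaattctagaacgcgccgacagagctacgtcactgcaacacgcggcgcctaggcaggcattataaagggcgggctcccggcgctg
The start used is that of the RefSeq table, and GENCODE lists a further Actc1 start upstream of this window.

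Motifs were searched on both strands in the whole window, 250 bases before to 50 bases after a start, for the 64 windows listed for 50 of the members. GGAATG was found in 21.9% of the members' windows and in 14.7% of all 32851 windows. The windows with it belonged to Acta2, Adam19, Anxa1, Axl, Car14, Chst15, Cobl, Cyr61, Apela, Gpc4, Pdgfc, Rai14 and Tmem231. The CArG box was searched in a strict form, CC, then 6 bases that are each A or T, then GG. It was found in the windows of Actc1 and Pdgfc, 3.12% of the members' windows against 1.63% of all. Looser forms, which actin promoters such as that of Acta2 also hold, were not searched. TTCNNNGAA was found in 6.25% against 8.30%, the AP-1 motif TGANTCA in 6.25% against 7.81%, the RBPJ motif GTGGGAA of the Notch pathway in 7.81% against 6.38%, and TATAAA in 20.3% against 13.6%. The GLI motif of the hedgehog pathway, GACCACCCA, was in 0 of the 64 windows and in 0.253% of all. These are matches of letters, with no evidence of binding in these data. The windows of some members, Acta2 and Socs3 among them, lie partly inside the gene as annotated.

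The intermediate filament genes Vim and Nes, which encode vimentin and nestin, had shallower dips than the actins. Vim read 284 and 325 CPM on day 0, 124 and 134 CPM on day 1, 724 and 617 CPM on day 2, and 1453 and 1070 CPM on day 3. Nes read 222 and 154 CPM on day 0, 92.8 and 84.1 CPM on day 1, 327 and 301 CPM on day 2, and 619 and 554 CPM on day 3. Both were called higher on day 2 than on day 0 and again on day 3 than on day 2. Kazn, Cobl, Msn and Rai14 had dips of 0.50 to 1.05. Moesin, the product of Msn, links actin to the membrane, and Msn stood at 295 and 351 CPM on day 0, 171 and 158 CPM on day 1, and 356 and 350 CPM on day 3. From a list of 20 YAP and serum response factor targets, 19 at the day 0 level, the members were Acta2, Axl and Thbs1. Cyr61 is held by the immediate early list and not by this one. Of all genes at the day 0 level 0.675% met the rule, and nothing is read from so short a list. Tagln was lower on day 1 by less than the margin, and 3.8% of all genes at the day 0 level had a dip above 0. In that list of 20, 10 genes were called higher and 2 lower on day 2 than on day 0 (21.3% and 20.1% of all genes tested), with a median of 0.67 against 0.02.

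The matrix and adhesion genes included Tnc (tenascin C), Thbs1 (thrombospondin 1) and 3 collagen genes (Col5a2, Col8a1 and Col12a1). The group also held the cell adhesion gene Cdh3, a cadherin, the proteases Adam19 and Mmp11, and Chst15, which sulfates chondroitin. Tnc had 10.2 and 19.1 CPM on day 0, 2.96 and 2.56 CPM on day 1, 7.92 and 7.2 CPM on day 2, and 12.7 and 13.8 CPM on day 3. Thbs1 had 89.3 and 96.2 CPM on day 0, 48.5 and 52.1 CPM on day 1, and 209 and 226 CPM on each of days 2 and 3. Thbs1 was called higher on day 2 than on day 0 (log2 fold change 1.23 ± 0.14, adjusted p = 0.000209 in edgeR). Col8a1 was scarce on day 1, at 0.216 and 0.688 CPM, and spread widely on day 3, at 16.7 and 7.02 CPM. Of 18 basement membrane and matrix genes at the day 0 level, 0 were members. Fn1 and Sparc were lower on day 1 by less than the margin, and 3.8% of all genes at the day 0 level had a dip above 0.

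Of the 7 neural genes, a group made after the values were seen, 6 were called higher on day 3 than on day 2, where 2.81% of all genes tested were. The libraries of both days also enter the rule, so nothing is read from this share. The calls of Neurod1 and Shisa6 were each lost in 9 of 17 alternatives. That of Thsd7a was lost in 5 of 17, that of Gpm6b in 2 of 17 and that of Trim67 in 2 of 15. No such count was made for Slc1a3. Gpm6b, a membrane proteolipid of neurons and glia, read 5.98 and 5.99 CPM on day 0, 0.793 and 1.44 CPM on day 1, 12.9 and 9.09 CPM on day 2, 79.6 and 59.4 CPM on day 3, and 134, 107 and 107 CPM after sorting. Thsd7a read 3.91 and 5.01 CPM on day 0, 1.73 and 2.09 CPM on day 1, 22.6 and 12.6 CPM on day 2, and 140 and 66.5 CPM on day 3. These were the members with the largest gain from day 0 to day 3, 11.6-fold for Gpm6b and 23.2-fold for Thsd7a, followed by Kbtbd11 at 10.1-fold. Neurod1, a proneural transcription factor, was low on each day, at 7.88 and 4.54 CPM on day 0, 1.19 and 1.09 CPM on day 1, 3.72 and 3.78 CPM on day 2, and 9.59 and 10.4 CPM on day 3.

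Trim67, a TRIM-family gene of neurons, was still low on day 2. It held 12.1 and 7.45 CPM on day 0, 0.0721 and 0.125 CPM on day 1, 0.334 and 0.436 CPM on day 2, and 8.36 and 5.79 CPM on day 3. The day 1 libraries held 2 and 4 counts and the day 2 libraries 9 and 12, so day 2 met the margin on few reads. It was lower on day 2 than on day 0 by edgeR (log2 fold change -4.65 ± 0.44, adjusted p = 6.96e-05) and higher on day 3 than on day 2 (4.18 ± 0.43, adjusted p = 0.00352). Slc1a3, the astroglial glutamate transporter GLAST, also fell and returned: it held 52.1 and 52.7 CPM on day 0, 17.3 and 16.2 CPM on day 1, 29.8 and 25.2 CPM on day 2, and 60 and 44.9 CPM on day 3. Shisa6 and Trim2 had dips of 0.85 and 0.55.

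Among enzymes, transporters and chaperones, the carbonic anhydrase genes Car4 and Car14, whose products interconvert carbon dioxide and bicarbonate, parted after day 1. Car4 read 80.9 and 51.8 CPM on day 0, 10.3 and 9.97 CPM on day 1, 73.8 and 33.3 CPM on day 2, and 67.9 and 33.3 CPM on day 3, with the second library of days 2 and 3 below the first. Car14 read 8.19 and 4.71 CPM on day 0, 0.974 and 1.28 CPM on day 1, 21 and 17.6 CPM on day 2, and 29.0 and 31.2 CPM on day 3. In the sorted libraries Car4 was at 7.71, 13.8 and 23.2 CPM and Car14 at 70.2, 62.8 and 52.2 CPM. The small heat shock genes Cryab and Hspb8 had dips of 0.65 and 0.78, and 0 of 18 listed heat shock and endoplasmic reticulum chaperone genes at the day 0 level were lower on day 1 than in every library of days 0, 2 and 3 (3.8% of all genes). The remaining 6 genes of the group, Pla2g7, Cpm, Aasdh, Smpdl3b, Ctu1 and Slc6a15, had dips of 0.51 to 0.67.

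The mixed rest had dips of 0.53 to 1.51. Serpinb9b, a serine protease inhibitor, read 7.75 and 10.4 CPM on day 0, 1.77 and 2.47 CPM on day 1, 9.25 and 9.78 CPM on day 2, and 20.2 and 16.4 CPM on day 3. Ago1, an Argonaute protein of small RNA silencing, and Kbtbd11 ended above day 0. Ago1 went from 187 and 182 CPM on day 0 to 333 and 321 CPM on day 3, and Kbtbd11 from 24.4 and 34.2 CPM to 363 and 231 CPM. Others in this group were Glipr1, Anxa1 (annexin A1), Nxf7, Fv1 (a retrovirus restriction factor), Tmem200a, Tmem231, Fam84b, Snhg20 (listed as 2810008D09Rik, a long noncoding RNA), AC140326.1 and AC107744.1. All 66 members with a GENCODE entry by symbol were protein-coding.

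How far the genes came back was left free only in part by the rule. It fixed no order among days 0, 2 and 3 but placed each of them above day 1. On day 3 both libraries were above both day 0 libraries for 46 of the 72 genes (63.9%, against 39.6% of all genes at the day 0 level), and below for 6 (8.33%, against 38.3%). The 6 were Bmp4, Socs3, Snhg20, Smad7, Pmepa1 and Smpdl3b. The rule itself keeps a gene from ending below its day 1 level, so the lower count is limited by the choice of genes. The same choice can raise the share above day 0, so neither share is read as a result about the members. Among the means of days 0, 2 and 3, the highest was on day 3 for 49 genes, on day 0 for 14 and on day 2 for 9.

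On day 2, 16 of the 72 genes were called higher than on day 0 (22.2%, against 21.3% of all 16810 genes tested) and 6 lower (8.33%, against 20.1%), by edgeR at an adjusted p under 0.05. The median log2 fold change was -0.06, against 0.02 for all genes, with changes from -4.65 to 2.00. The rule placed each day 2 library above day 1, which limits how many genes can be called lower, so nothing is read from that share. The largest rises were Fgf15 (2.00), Thsd7a (1.99), Nrp2 (1.68) and Car14 (1.58). The 6 that fell were Trim67, Pmepa1, Smad7, Socs3, Tnc and Slc1a3. Without day 2 replicate 1 the count called higher was 8. The 6 called lower became 12 in DESeq2 and 3 in limma on log2(FPKM + 1) with no filter.

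From day 2 to day 3, 13 genes were called higher (18.1%, against 2.81% of all genes tested) and 0 lower (against 1.26%). At an unadjusted p under 0.05 the counts were 34 and 2, and DESeq2 called 26 and 2. The share over all genes was not worked out for either setting. The median log2 fold change was 0.59, against -0.01 for all genes, and 58 of the 72 changes were above 0. The 13 were Trim67 (4.18), Gpm6b (2.67), Thsd7a (2.56), Kbtbd11 (1.82), Acta2 (1.66), Neurod1, Col5a2, Shisa6, Adam19, Slc1a3, Vim, Nes and Ago1. Neural genes made up 6 of the 13, and the 10 neuron markers were all called higher in this comparison, with a median of 3.06. As day 2 and day 3 libraries also enter the rule, a fall to the day 1 level was not possible for a member. Nothing is therefore read from these shares and counts or from the median. The part of new neurons in the members' rise was not tested.

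This count rested on single libraries. Leaving out day 3 replicate 1 gave 0. Leaving out day 2 replicate 2 gave 1, and leaving out day 2 replicate 1 gave 5. Limma on FPKM called 1 or 2. The members spread most between the day 3 libraries: the standard deviation of the replicate difference over the 72 genes was 0.576 log2 units on day 3, against 0.325 on day 2. Shisa6, 1.17 on counts, was 0.05 on log2(FPKM + 1). Day 2 libraries enter both this comparison and that of day 2 with day 0, so the values of the members in them are not independent.

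**Figure D3:**
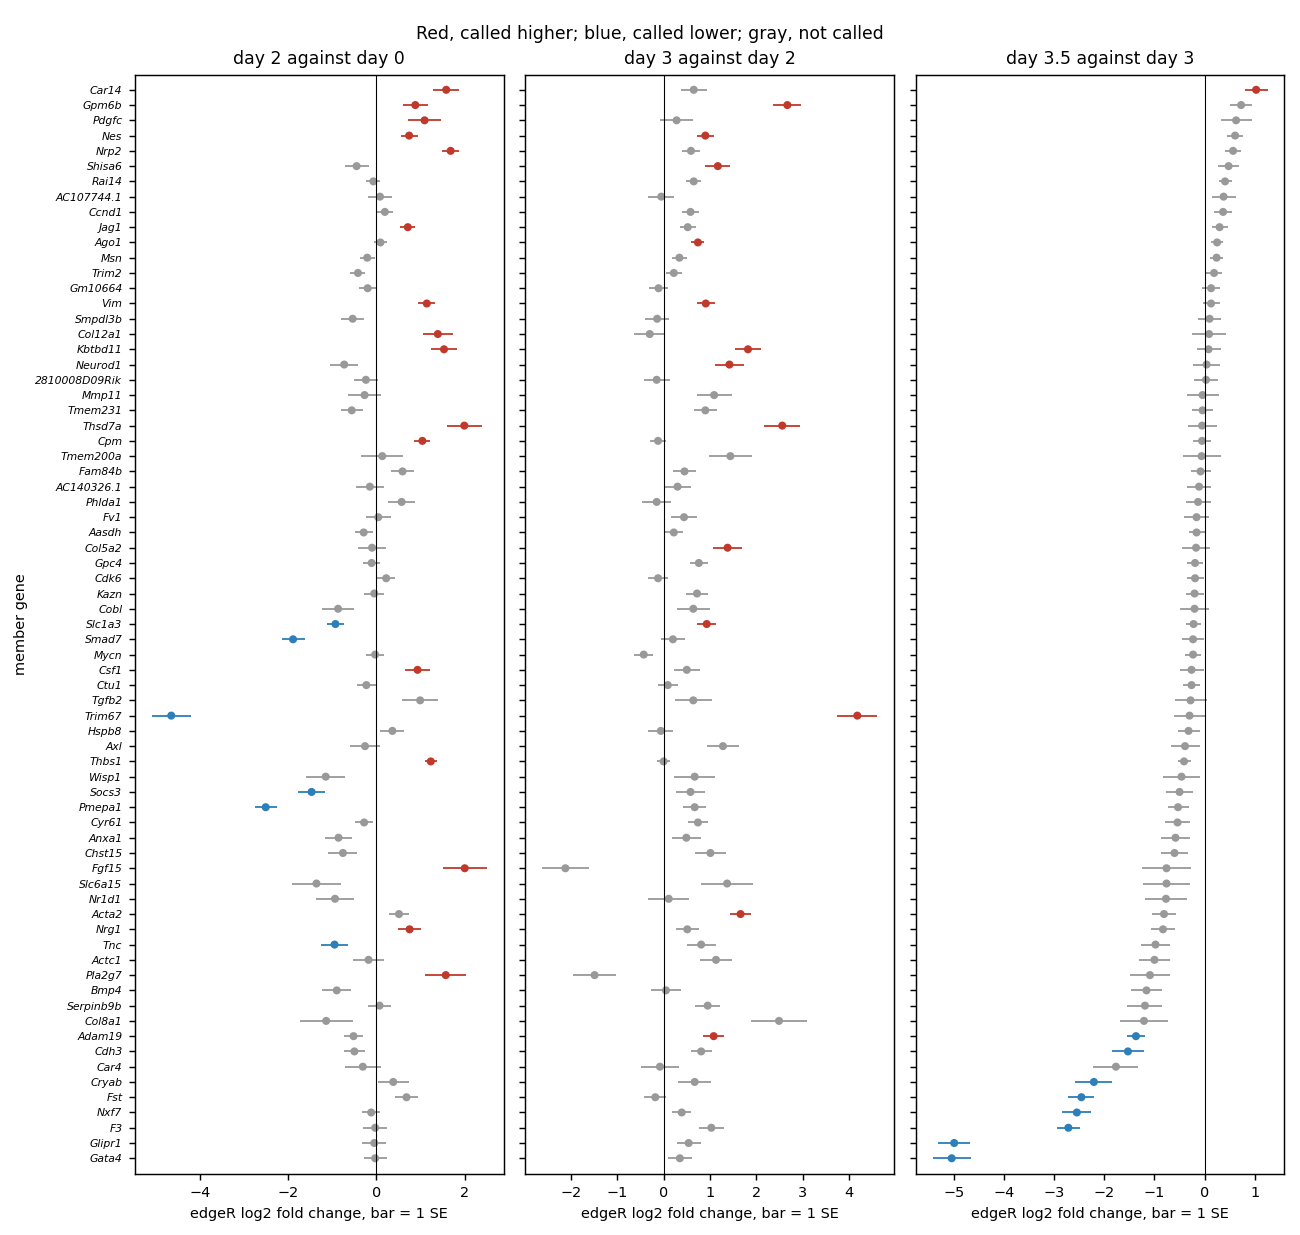
edgeR log2 fold changes (x) of 71 of the 72 genes (y, ordered by the right panel) in the 3 comparisons whose direction the rule did not fix, with bars of 1 standard error. Red genes were called higher (16, 13 and 1), blue genes lower (6, 0 and 8 of those drawn), and gray genes were not called. Most points of the middle panel lie right of 0.

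The sorted day 3.5 libraries were not used by the rule. In 63 of the 72 genes all 3 were above both day 1 libraries (87.5%, against 26% of all genes at the day 0 level), 55 of them by the full margin. Since the day 1 values that chose the genes enter this count, it is given as a description. In 4 genes, Glipr1, F3, Nxf7 and Gata4, all 3 sorted libraries were at or below the higher day 1 value.

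Against day 3, 9 genes were called lower in the sorted libraries (12.5%, against 2.93% of 17006 genes tested) and 1 higher (1.39%, against 0.435%), by edgeR. The median log2 fold change was -0.22, against -0.01 for all genes. The day 3 libraries enter the rule, which kept genes with day 3 values above day 1. Such a choice can favor falls from day 3, so nothing is read from these shares or from the median. The gene called higher was Car14 (1.03 ± 0.23, adjusted p = 0.0349), and this call was lost in 10 of 20 alternatives, with an adjusted p of up to 0.284 without day 3 replicate 1. Without that library 6 genes were called lower. Day 3.5 differs from day 3 in time, in sorting and in the series of libraries, and these cannot be told apart.

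Gata4 fell the most, from 40.2 and 25.5 CPM on day 3 to 0.538, 1.75 and 0.662 CPM (log2 fold change -5.05 ± 0.38, adjusted p = 4.31e-05). Glipr1 went from 13 and 12.7 CPM to 0.239, 0.454 and 0.515 CPM (-5.0 ± 0.32, adjusted p = 1.92e-05). F3 went from 75.2 and 44.0 CPM to 8.90, 9.92 and 8.38 CPM (-2.72 ± 0.23, adjusted p = 0.000117). In these 3 genes no sorted library came within 4-fold of a day 3 library, and their calls held in each of the 20 alternatives.

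Also called lower were Nxf7 (-2.55), Fst (-2.46), Cryab (-2.21), Cdh3 (-1.53) and Adam19 (-1.37). Nxf7, a nuclear RNA export factor family gene, went from 39.7 and 29.2 CPM on day 3 to 3.17, 7.33 and 7.28 CPM. Its call was lost only in limma on log2(FPKM + 1) with no filter (adjusted p = 0.0628). Adam19 was the single gene called both higher on day 3 than on day 2 and lower after sorting, at 42.6 and 33.5 CPM on day 2, 94.9 and 66.1 CPM on day 3 and 27.8, 32.8 and 32.9 CPM after sorting. Both comparisons use the day 3 libraries.

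Markers of extraembryonic endoderm moved with these falls. The summed level of the 10 listed markers, Gata4 among them, was 294 to 300 CPM on day 0, 230 to 284 CPM on day 1, 288 to 318 CPM on day 2, 241 to 279 CPM on day 3 and 36.1 to 43.3 CPM in the sorted libraries. Of 9 tested, 7 were called lower after sorting (2.93% of all genes tested), with a median of -3.43. Cubn, an uptake receptor of visceral endoderm, went from 96.0 and 98.3 CPM to 3.11, 2.01 and 1.54 CPM, and Gata6 from 20.0 and 15.9 CPM to 2.21, 1.30 and 1.47 CPM. Afp, Ttr, Amn and Apoa1 were under 2 CPM in every library. Of 20 adhesion and junction genes, Cdh3 among them, 11 were called lower and 0 higher in the same comparison (2.93% and 0.435% of all genes tested). The part of endoderm cells in the members' falls was not tested.

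**Figure D4:**
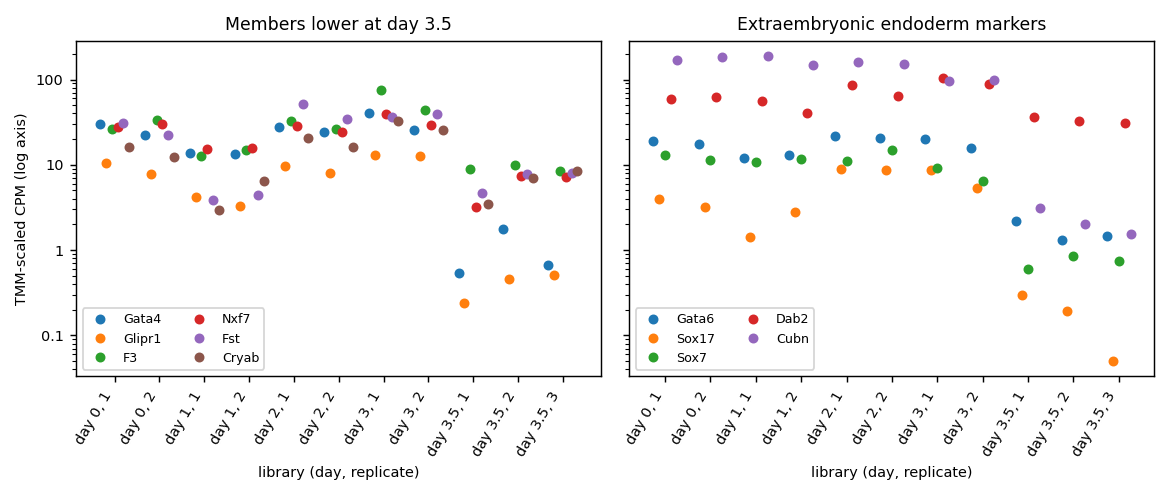
TMM-scaled CPM on a log axis (y) in each library (x) for 6 of the 9 members called lower at day 3.5 (left) and 5 endoderm markers (right). One Sox17 value of 0 is drawn at the bottom of its panel. In both panels the 3 sorted libraries lie below the day 3 libraries, while the day 1 dip of the left panel is smaller or missing on the right.

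The rule was met by 0.675% of genes at the day 0 level, so most short lists would hold no member. Glycolysis (19 genes at the day 0 level), hypoxia-inducible factor targets (17), cholesterol synthesis (20), the integrated stress response (16), metal handling (9), genes shared by epiblast and neural cells (16) and growth factor receptors (16) held 0 of the 72. Ldha, left out by name, belongs to the first of these and did not meet the rule. Some genes of these lists were lower on day 1 than in each library of the other unsorted days, by less than the margin. They were Aldoa, Tpi1 and Pgk1 of glycolysis, P4ha1 of the hypoxia targets, and Slc39a10 and Tfrc of metal handling. Sox2 and Sox11 of the shared factors, and Pdgfra and Lifr of the receptors, were so as well. Over all genes at the day 0 level, 3.8% had a dip above 0. On day 2, 17 of 20 cholesterol genes and 11 of 15 Notch genes were called higher than on day 0 (21.3% of all genes tested), and 10 of 10 pluripotency markers were called lower (20.1%).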

How the data were processed

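RNA of 11 polyA-selected libraries was measured by sequencing. Per the submitters' processing notes, the tools used included TopHat2 2.0.4, Cufflinks 2.1.1, HTSeq 0.6.1, limma and bcl2fastq 1.8.3 with CASAVA, and the builds GRCm38 and mm10, with no role given. Neither the gene annotation nor the strand setting is named there, so values of overlapping genes or close copies may be mixed. The deposited counts (38197 genes, 104 of them with fractions) were treated as estimated counts made by the authors and rounded. The deposited log2 values equal log2 CPM from those counts with an offset of 0.5, to within 5.15e-14. The deposited FPKM values were used only as an alternative.

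Tests used edgeR 4.0.16 in R 4.3.3 on the counts (quasi-likelihood F test, TMM, filterByExpr with a minimum count of 10, Benjamini-Hochberg adjustment over all genes tested, threshold 0.05) in a group means model, on 8 libraries for days 0 to 3 and on 11 for day 3.5 against day 3. The SE was the log2 fold change over the square root of F. Printed levels are CPM with TMM factors over all 11 libraries. The code was tested on simulated data. Day 1 differences set the choice of genes and were not tested. Alternatives were RLE factors, no filter, DESeq2 1.42.0, limma 3.58.1 on the deposited log2 values and on FPKM, other libraries in the fit, a replicate block, each library left out, and other forms of the rule.

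The members and the 26 gene lists were chosen with earlier results of these data known. The rule for named genes took the 15 deepest dips among genes with a proper symbol, members of the lists, the 4 largest called changes in each direction on day 2 against day 0 and on day 3.5 against day 3, and the 2 genes on either side of the margin. Other genes named, and the role groups, were chosen after their values were seen. A member counted in the totals is not reported here by name. Positions are from GENCODE M21 (GRCm38), matched by symbol for 66 members, and promoters from RefSeq (GRCm38.p6).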

Additional observations from a re-analysis of the deposited data

How the results depend on the processing

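Over the alternatives the named genes' calls were lost in 3 of 134 values on day 2 against day 0, 44 of 134 on day 3 against day 2 and 11 of 100 on day 3.5 against day 3, and 0 changed direction. The rule gave 72 genes, 144 with a margin of 0.25, 23 with a margin of 1 and 45 on log2(FPKM + 0.1). Called lower on day 2 against day 0 were 6 members, 13 with no filter on low counts, 12 in DESeq2, 11 with all 11 libraries in the fit and 3 in limma on unfiltered log2(FPKM + 1). On day 3 against day 2, 13 were higher and 0 lower, 25 and 2 with no filter, 26 and 2 in DESeq2, 20 and 1 with all 11 libraries, and 13 and 1 with RLE factors. There limma called 2 higher on log2(FPKM + 1), filtered or not, and 1 on log2(FPKM + 0.1). On day 3.5 against day 3, 1 was higher and 9 lower, 3 and 16 with no filter, 5 and 15 in DESeq2, and 0 and 5 in limma on unfiltered log2(FPKM + 1). Limma called 0 higher there on the deposited log2 values and on log2(FPKM + 0.1). Leaving out 1 library gave 8 to 17 higher and 4 to 9 lower on day 2 against day 0, 0 to 15 and 0 to 2 on day 3 against day 2, and 0 to 2 and 6 to 11 on day 3.5 against day 3. A day left with 1 library was assumed to vary like the other days. The causes were not tested.

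Same-numbered libraries did not deviate in a consistent direction. Correlations across genes of the replicate differences ran from -0.79 between days 0 and 1 to 0.504 between days 1 and 3.5. The differences of some days were thus related, with mixed sign. With a replicate block, 12 were higher and 6 lower on day 2 against day 0, 7 and 0 on day 3 against day 2, and 0 and 7 on day 3.5 against day 3. With 2 libraries a day and 13173674 to 17113430 counts in the sorted ones, small changes and the scarcest members, Trim67 on day 1 above all, are measured with little precision.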
